A study of Homo sapiens with 8 samples.

Results

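The 42 genes described here act in homologous recombination, in the Fanconi anaemia pathway and in the checkpoint and chromatin signals that start at a DNA break. They were taken from a list of symbols by a rule that used no measured value, although earlier results of these data were known when the list was made. All 42 were found among the 58828 genes of the count tables, where MRE11A and H2AFX stand for the genes now called MRE11 and H2AX, and all 42 were among the 22418 genes that passed the filter on low counts. Each of them averaged 100 or more normalized counts over the 8 libraries, a normalized count being the raw count divided by a size factor of its library.

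RNA was sequenced from 22RV1 and DU145 cells, both established human prostate cancer lines. Both lines had been transduced with lentivirus, carrying either an empty vector or HA-tagged PAGE4 in a doxycycline-inducible vector, were selected with puromycin and were all given doxycycline. PBS or H2O2, at 200 mM according to the labels, was added for 12 h. The 8 groups were thus 22RV1 vector PBS, 22RV1 vector H2O2, 22RV1 PAGE4 PBS, 22RV1 PAGE4 H2O2 and the same 4 in DU145, with 1 library each. No condition was repeated, so tests of an effect common to both lines take the 4 pairs of libraries as repeats. Tests in 1 line or between the lines rest on the fewer libraries of each line. There, vector and PAGE4 cells served as repeats for H2O2 and line effects, and PBS and H2O2 pairs for PAGE4 effects. The p-values measure the spread between these libraries only.

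Total counts ranged from 25482984 to 43310401 per library, and the raw counts of the 42 genes from 31 to 18271. PAGE4 had a raw count of 0 or 1 in the 4 vector libraries and of 1001 to 1489 in the 4 PAGE4 libraries. KLK3, KLK2, TMPRSS2 and HOXB13, which mark 22RV1 cells, had normalized counts of at least 111 in every 22RV1 library and of at most 4.5 in every DU145 library. AXL, CAV1 and ANXA1, which mark DU145 cells, had at least 2003 in DU145 libraries and at most 102 in 22RV1 libraries. KRT7 and VIM, also listed for DU145, had at least 12677 in DU145 libraries and at most 745 in 22RV1 libraries. Some of the other markers were less separate. CD44 and LGALS1, listed for DU145, went the other way and were higher in 22RV1 cells under each construct and treatment. With PBS, in vector and PAGE4 cells, LGALS1 had 3046 and 4408 in 22RV1 against 1955 and 3454 in DU145. CD44 differed less, with 2759 and 3324 against 2516 and 2778.

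Homologous recombination repairs a double-strand break by copying the intact sister chromatid. The MRN complex and its partners trim the broken end, BRCA1 with PALB2 and BRCA2 load the strand exchange protein, and helicases and nucleases resolve the joined DNA. The Fanconi anaemia pathway removes links between DNA strands: a core complex with the E2 enzyme UBE2T attaches ubiquitin to FANCD2 and FANCI, which then bring in nucleases and recombination factors. Breaks are signalled by the kinases ATM and ATR and by the histone H2AX, and many of these genes are transcribed most in S and G2 phase.

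Promoter sequences are shown for FANCD2, which fell with H2O2 in both lines, and for MDC1 and H2AFX, which had the smallest p-values for a different response in the 2 lines. Each covers 250 bases before to 50 bases after the annotated start, read 5′ to 3′ on the strand of the gene, from RefSeq (GRCh38.p14). FANCD2 is at chr3:10026187-10026486 on the plus strand, H2AFX at chr11:119095416-119095715 and MDC1 at chr6:30717232-30717531, both on the minus strand. Capitals mark E2F words (TTTCCCGC, TTTCGCGC, TTTGCCGC or TTTGGCGC) and CCAAT boxes (CCAAT), each on either strand.
FANCD2: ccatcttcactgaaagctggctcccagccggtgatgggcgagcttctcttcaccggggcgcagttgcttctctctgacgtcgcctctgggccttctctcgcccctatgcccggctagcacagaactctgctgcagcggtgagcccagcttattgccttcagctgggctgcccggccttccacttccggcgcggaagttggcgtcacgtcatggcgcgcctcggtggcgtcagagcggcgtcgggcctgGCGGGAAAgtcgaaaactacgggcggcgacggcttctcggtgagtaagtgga
H2AFX: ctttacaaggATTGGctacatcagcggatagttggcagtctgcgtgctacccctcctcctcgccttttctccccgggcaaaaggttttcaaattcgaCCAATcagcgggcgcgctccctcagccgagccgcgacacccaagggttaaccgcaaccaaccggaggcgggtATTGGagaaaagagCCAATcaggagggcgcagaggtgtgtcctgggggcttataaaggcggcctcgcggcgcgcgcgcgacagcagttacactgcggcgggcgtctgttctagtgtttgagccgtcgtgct
MDC1: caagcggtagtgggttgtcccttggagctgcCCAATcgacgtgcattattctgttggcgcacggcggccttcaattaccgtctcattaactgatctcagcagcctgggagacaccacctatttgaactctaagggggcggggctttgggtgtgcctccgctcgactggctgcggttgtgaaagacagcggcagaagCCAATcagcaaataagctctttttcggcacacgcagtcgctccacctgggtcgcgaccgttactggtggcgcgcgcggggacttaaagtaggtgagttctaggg
The FANCD2 promoter held 1 E2F word and the H2AFX promoter held CCAAT in 4 places, while the MDC1 promoter held it in 2. Of the 42 genes, 38 had an entry in the RefSeq promoter table, with 48 promoters, and FANCI, NBN, RAD54B and WRN had none. An E2F word was present in 5 of the 48 promoters (10.4%), those of FANCA, FANCC, FANCD2, TOPBP1 and XRCC2, against 3.3% of the 35116 promoters in the table. CCAAT was present in 24 of the 48, against 34.6% of all promoters. TTTGAA, the core of the cell cycle homology region, was present in 6 of the 48 (12.5%), against 15.2% of all. The H2AFX and MDC1 promoters shown above each held it in 1 place, on either strand, where it is not marked by capitals. A match is a description of the letters and was not linked to binding in these cells. In 22RV1 cells, the median log2 fold change with H2O2 was -0.60 for the 20 genes with CCAAT and -0.58 for the 18 without, and in DU145 cells it was -0.17 and -0.19. For the 5 genes with an E2F word and the 33 without, the median was -0.54 and -0.61 in 22RV1 cells. In DU145 cells these medians were -0.25 and -0.15.

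The first comparison was H2O2 against PBS across both lines and both constructs. Most of the genes were lower with H2O2, led by EME1, RAD51B, FANCD2, ATM, UBE2T, FANCI and BRCA1. With edgeR's quasi-likelihood test and Benjamini-Hochberg adjustment over all 22418 genes, 18 of the 42 fell and 1, RNF8, rose. Over all genes tested, 11.2% fell and 8.89% rose, and among the 12854 genes that also averaged 100 or more, 17.5% fell and 13.4% rose. The median log2 fold change was -0.37 over the 42 genes and -0.03 over all genes tested, and it was -0.24 over the 42 without the 22RV1 PAGE4 pair. In bulk RNA, fewer cells in a state that transcribes these genes and less RNA of them per cell cannot be told apart. A total of 21 of the 42 had a lower normalized count with H2O2 in all 4 pairs (21.6% of all genes tested) and 1 a higher one in all 4 pairs (19.3% of all).

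The call of 10 of these 19 genes was kept under every alternative tried, namely EME1, BRCA1, FANCI, UBE2T, FANCD2, FANCG, ATM, RAD51B, BRIP1 and CHEK2. Without the 22RV1 vector pair, 10 were called in place of 19.

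**Figure D1:**
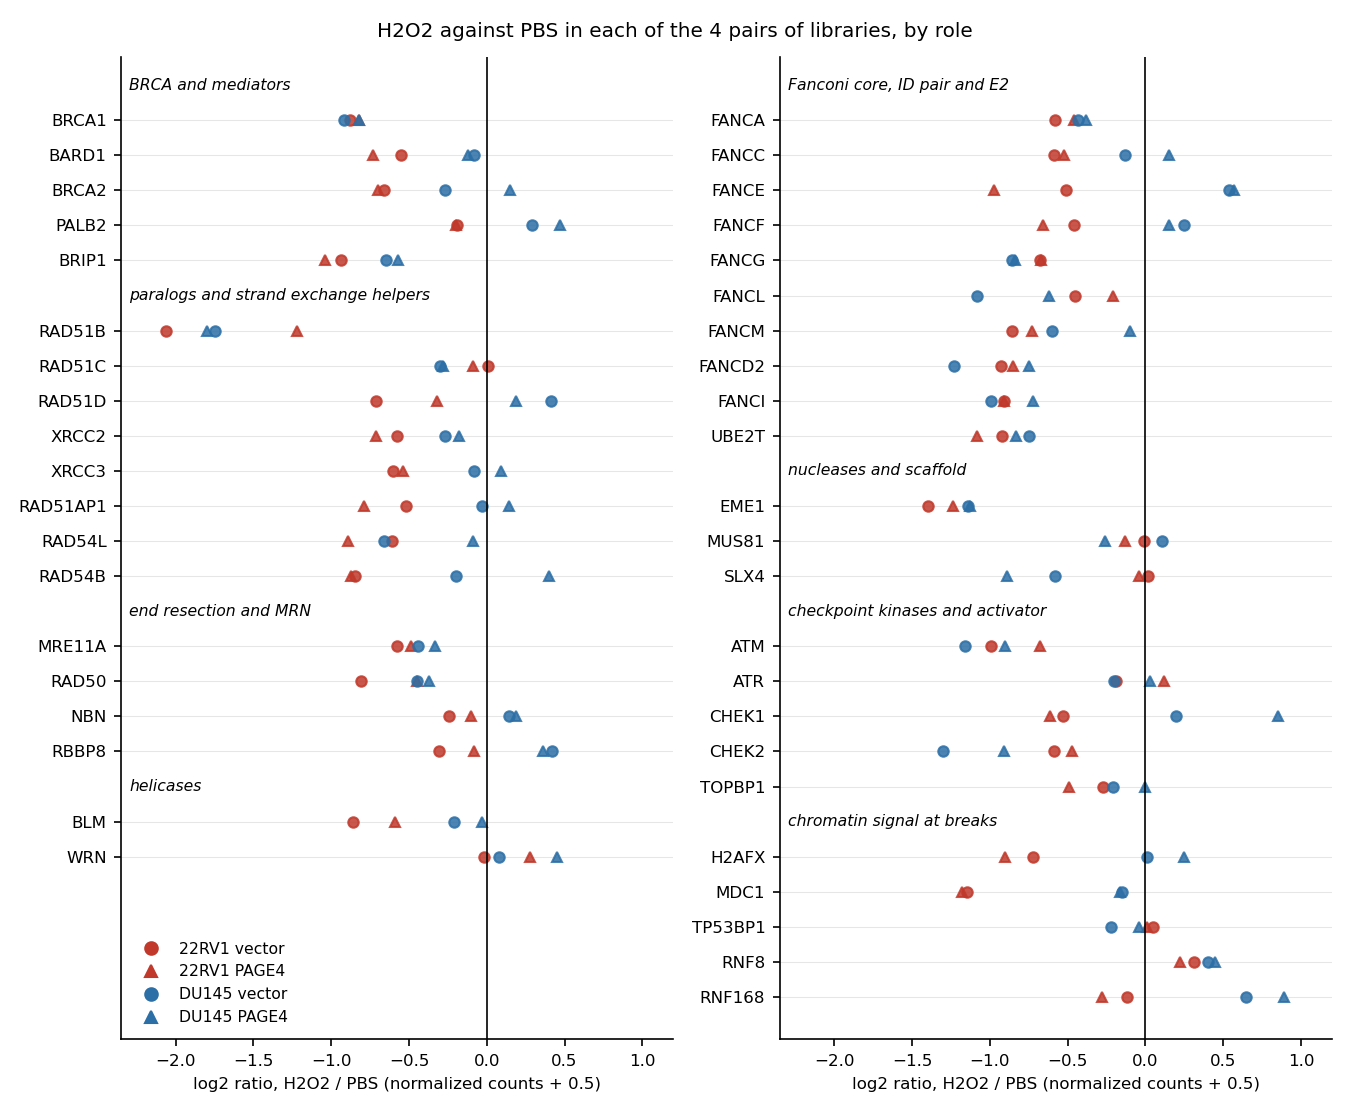
Log2 ratio of the normalized count with H2O2 to that with PBS (x axis, with 0.5 added to each count) for the 42 genes, grouped by role. Each gene has 4 points, circles for vector cells and triangles for PAGE4 cells, in red for 22RV1 and blue for DU145. 21 genes lie left of 0 in all 4 pairs, and the red points of most groups lie further left than the blue ones.

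The response was next fitted in each line and the difference between the lines was tested. In 22RV1 cells, 30 of the 42 genes fell and 0 rose (14.9% and 12.8% of all genes tested, and 22.8% and 18.6% of those averaging 100 or more), with a median log2 fold change of -0.59. For the 0 that rose, edgeR gave RNF8 as the only one with an unadjusted p under 0.05, and DESeq2 also called 0. In DU145 cells, 16 fell and 6 rose (19.8% and 16.9% of all genes tested, and 30.0% and 25.7% of those averaging 100 or more), with a median of -0.15. Without either DU145 pair the number that rose was 2 in place of 6, and without the DU145 PAGE4 pair the median was -0.24. The summed normalized count of the 42 genes was 85728 and 87627 in the 22RV1 PBS libraries and 54701 and 56300 with H2O2. In DU145 cells, the sum was 74542 and 69557 with PBS and 61939 and 63795 with H2O2. The sum was lower with H2O2 than with PBS in each of the 4 pairs.

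Crossing the calls of the 2 lines, 13 genes fell in both, 2 (FANCE and CHEK1) fell in 22RV1 and rose in DU145, and 5 (NBN, WRN, MUS81, ATR and TP53BP1) were called in neither. The matching crossed shares over all genes tested were not counted, so these numbers are a description only. The remaining 22 were called in 1 line, which by itself is no difference between lines. The difference was called for 16 genes, 14 with a lower fold change in 22RV1 and 2, SLX4 and CHEK2, with a lower one in DU145 (7.54% and 8.76% of all genes tested, 16.3% in either direction, and 12.3% and 13.6% of those averaging 100 or more). Of the 16, only MDC1, H2AFX, RNF168, FANCE and CHEK1 kept the call under every alternative tried. The count was 8 without the DU145 PAGE4 pair and 10 without the DU145 vector pair. Leaving out a pair leaves 1 pair in that line, whose spread is then assumed to be that of the other line.

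**Figure D2:**
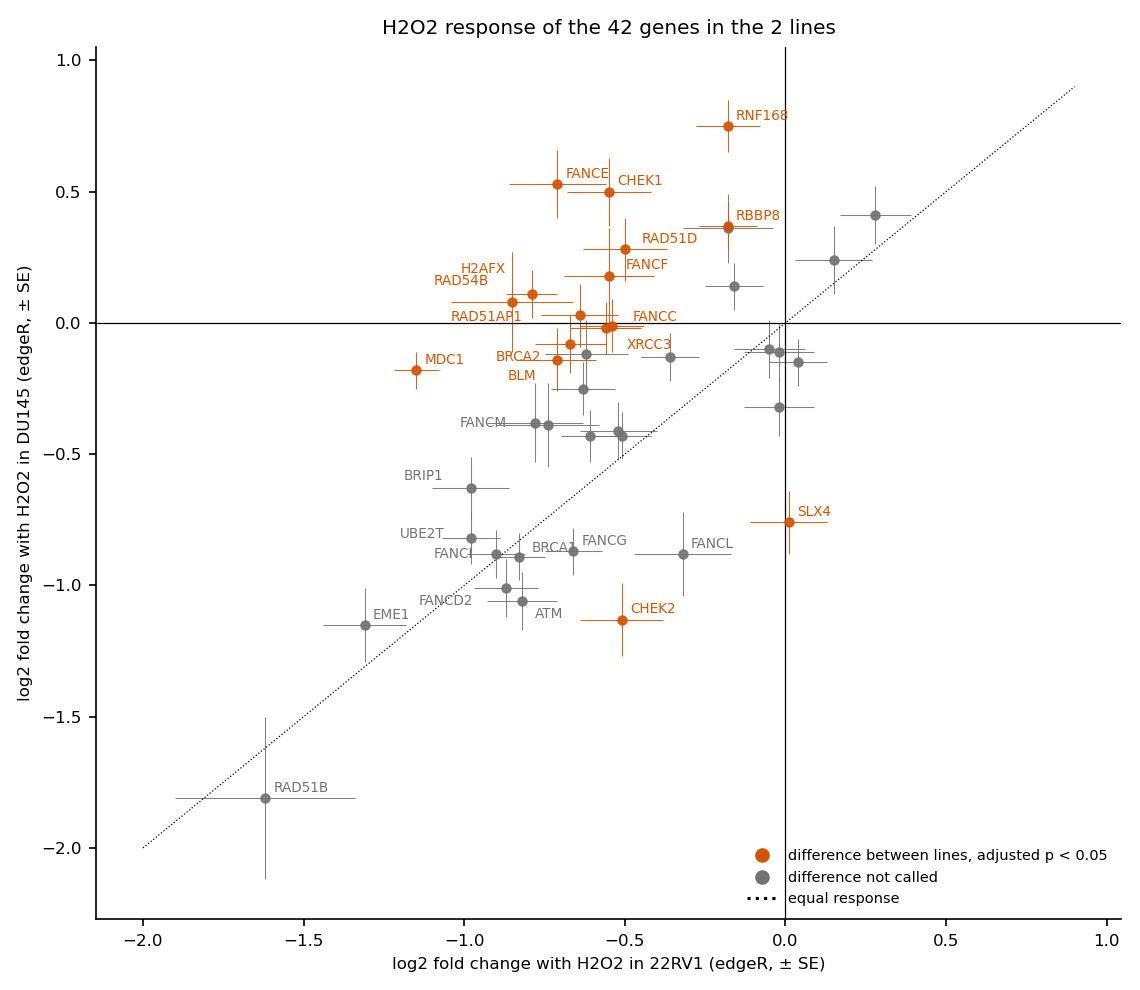
Log2 fold change with H2O2 in 22RV1 cells (x axis) and in DU145 cells (y axis) for the 42 genes, from edgeR, with bars of 1 SE. Orange points are the 16 genes whose response differed between the lines at an adjusted p under 0.05, 14 of which lie above the dotted line of equal response. EME1, RAD51B, FANCD2, ATM and BRCA1 lie near that line.

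Among BRCA1 and the mediators, 4 of 5 fell in 22RV1 cells, and in DU145 cells 2 fell and 1 rose. For this and the later role groups, the shares over all genes averaging 100 or more are the measure. Of those, 22.8% fell in 22RV1 cells, and in DU145 cells 30.0% fell and 25.7% rose. BRCA1, the ubiquitin ligase that promotes end resection and calls in PALB2 (chr17:43044295-43170245), had normalized counts in 22RV1 vector and PAGE4 cells of 4267 and 4429 with PBS and of 2321 and 2513 with H2O2, and in DU145 cells of 3568 and 3355 with PBS and of 1889.5 and 1898 with H2O2. All 4 libraries with H2O2 were below all 4 with PBS. Its log2 fold change across the pairs was -0.86 ± 0.08 (SE), with an edgeR adjusted p of 0.0011. BRIP1, a helicase that binds BRCA1 (chr17:61679139-61863559), had 1172 and 1106 with PBS and 609 and 537 with H2O2 in 22RV1 cells, and 962 and 783 with PBS and 614 and 528 with H2O2 in DU145 cells. The groups did not overlap, and the log2 fold change was -0.81 ± 0.12 with an edgeR adjusted p of 0.00515.

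BRCA2, which loads the strand exchange protein, fell in 22RV1 cells with a log2 fold change of -0.67 ± 0.11 (edgeR adjusted p = 0.000284), and was -0.08 ± 0.11 in DU145 cells (adjusted p = 0.638). The difference of -0.59 ± 0.16 had an edgeR adjusted p of 0.0181, which became 0.316 without the DU145 PAGE4 pair. BARD1, the partner of BRCA1 in its ligase, fell in 22RV1 cells by 0.62 on the log2 scale. PALB2, the bridge between BRCA1 and BRCA2, rose in DU145 cells with a log2 fold change of 0.36 ± 0.13 (edgeR adjusted p = 0.0427), but not with DESeq2 (adjusted p = 0.086) or without either DU145 pair (0.154 and 0.452).

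The paralogs and strand exchange helpers, which help to form and extend the recombination filament, fell in 7 of 8 cases in 22RV1 cells and in 2 of 8 in DU145 cells. RAD51B (chr14:67819779-68730218) had the largest fold change of the 42, with normalized counts in 22RV1 cells of 170.5 and 168 with PBS and 40.6 and 71.9 with H2O2, and in DU145 cells of 145 and 136 with PBS and 42.5 and 38.6 with H2O2. No library with H2O2 reached the level of any with PBS. The log2 fold change was -1.71 ± 0.23 (edgeR adjusted p = 0.00362), from raw counts of 31 to 248. XRCC2, another paralog (chr7:152644776-152676193), had 2271 and 2312 with PBS and 1514 and 1414 with H2O2 in 22RV1 cells, and 1094 and 1084 with PBS and 909.7 and 956 with H2O2 in DU145 cells. It was lower with H2O2 in every pair, and all 22RV1 libraries were above all DU145 libraries. In 22RV1 cells it fell by 0.63 on the log2 scale (edgeR adjusted p = 0.00012), and in DU145 cells the log2 fold change was -0.25 (adjusted p = 0.0755), a difference that was not called (adjusted p = 0.0795).

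The paralogs RAD51D and XRCC3, the strand exchange stimulator RAD51AP1 and the DNA translocases RAD54L and RAD54B fell in 22RV1 cells, with log2 fold changes of -0.50, -0.56, -0.64, -0.74 and -0.85, and none of them was called in DU145 cells. For RAD51D, XRCC3, RAD51AP1 and RAD54B the difference between the lines was called, at -0.78, -0.54, -0.67 and -0.93, and for RAD54L it was not (-0.34, edgeR adjusted p = 0.353). The 22RV1 call of RAD51D was lost without the 22RV1 vector pair (edgeR adjusted p = 0.154). RAD51C, a paralog that acts with RAD51B and with XRCC3, fell in DU145 cells by 0.32 (edgeR adjusted p = 0.0369) and was -0.02 in 22RV1 cells. With DESeq2 and without either DU145 pair it was not called (adjusted p = 0.118, 0.269 and 0.239). XRCC3 shares 76.7% of its exon length with other annotated genes and RAD54B 66.0%, so that their counts are uncertain.

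Of the genes of end resection, RAD50 and MRE11A fell in both lines and NBN in neither, although the 3 proteins form the MRN complex. The log2 fold change of RAD50 was -0.61 ± 0.09 in 22RV1 and -0.43 ± 0.10 in DU145 cells, and that of MRE11A was -0.52 ± 0.12 and -0.41 ± 0.11. The DU145 call of MRE11A was lost without either DU145 pair (edgeR adjusted p = 0.207 and 0.0853). For NBN these were -0.16 ± 0.09 and 0.14 ± 0.09, with edgeR adjusted p of 0.224 and 0.249. RAD50 shares 76.9% of its exon length with overlapping transcripts. RBBP8, also called CtIP, which starts resection with MRN (chr18:22798261-23026488), had 2026 and 2102 with PBS and 1636 and 1991 with H2O2 in 22RV1 cells, and 3557 and 3702 with PBS and 4772 and 4763 with H2O2 in DU145 cells. Both DU145 libraries with H2O2 were above every other library, and both 22RV1 libraries with H2O2 were below those with PBS. It rose in DU145 cells with a log2 fold change of 0.37 ± 0.09 (edgeR adjusted p = 0.00266, and 0.0854 without the DU145 vector pair).

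Of the helicases BLM and WRN, which unwind recombination intermediates, BLM fell in 22RV1 cells with a log2 fold change of -0.71 ± 0.12 (edgeR adjusted p = 0.000221) and was -0.14 ± 0.12 in DU145 cells (adjusted p = 0.391). WRN (chr8:31033788-31176138) had 1037 and 981 with PBS and 1025 and 1194 with H2O2 in 22RV1 cells, and 1022 and 813 with PBS and 1079.7 and 1110.1 with H2O2 in DU145 cells. The groups overlapped in 22RV1 cells, and WRN was called in neither line.

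The Fanconi group was the largest role group, with 10 genes. Of these, 9 fell in 22RV1 cells and 6 in DU145 cells, where FANCE rose. Among all genes averaging 100 or more, 22.8% fell in 22RV1 cells and 30.0% in DU145 cells. FANCD2 (chr3:10026370-10101932), which receives ubiquitin from the core complex, had 3503 and 4179 with PBS and 1844 and 2325 with H2O2 in 22RV1 cells, and 2944 and 2558 with PBS and 1253 and 1523 with H2O2 in DU145 cells. Its partner FANCI (chr15:89243945-89317261) had 4679.5 and 5350.4 with PBS and 2496 and 2839 with H2O2 in 22RV1 cells, and 3913 and 3159 with PBS and 1963 and 1923 with H2O2 in DU145 cells. For both genes the 4 libraries with H2O2 lay below the 4 with PBS. FANCD2 had a log2 fold change of -0.94 ± 0.11 and FANCI of -0.89 ± 0.09, with edgeR adjusted p of 0.00179 and 0.00116.

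UBE2T, the E2 enzyme of this step (chr1:202331544-202341984), had 3472 and 3229.6 with PBS and 1832 and 1532 with H2O2 in 22RV1 cells, and 1732 and 1526 with PBS and 1027 and 856 with H2O2 in DU145 cells. It was lower with H2O2 in every pair, while the 22RV1 libraries with H2O2 overlapped the DU145 libraries with PBS. The log2 fold change was -0.90 ± 0.09 (edgeR adjusted p = 0.00136). FANCG, a core complex protein (chr9:35073835-35080004), had 2178 and 2496 with PBS and 1356 and 1572 with H2O2 in 22RV1 cells, and 3863 and 4099 with PBS and 2134 and 2282 with H2O2 in DU145 cells. It was higher in DU145 than in 22RV1 cells under each treatment and fell in both lines, with a log2 fold change of -0.77 ± 0.09 (edgeR adjusted p = 0.00219). FANCA, another core protein (chr16:89726683-89816977), had 2424 and 2366 with PBS and 1622 and 1717 with H2O2 in 22RV1 cells, and 3552 and 3068 with PBS and 2637 and 2357 with H2O2 in DU145 cells. It was lower with H2O2 in each pair by a smaller amount, with a log2 fold change of -0.47 ± 0.09 (edgeR adjusted p = 0.00925, and 0.0605 without the 22RV1 vector pair).

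FANCE, which links the core complex to FANCD2 (chr6:35452338-35467104), had 344 and 374 with PBS and 242 and 191 with H2O2 in 22RV1 cells, and 876 and 873 with PBS and 1276 and 1297 with H2O2 in DU145 cells. H2O2 libraries were the lowest of all in 22RV1 and the highest of all in DU145. The log2 fold change was -0.71 ± 0.15 in 22RV1 and 0.53 ± 0.13 in DU145 cells, and the difference of -1.24 ± 0.20 had an edgeR adjusted p of 0.00035. In DU145 cells alone the call was lost without either pair of that line (edgeR adjusted p = 0.0754 and 0.0954), whereas the difference between the lines remained called.

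FANCC and FANCF, both core proteins, and FANCM, the translocase that anchors the complex to DNA, fell in 22RV1 cells by 0.54, 0.55 and 0.78 on the log2 scale and were not called in DU145 cells. FANCF lost its call without the 22RV1 PAGE4 pair (edgeR adjusted p = 0.0749). FANCL, the ubiquitin ligase of the core complex, fell in DU145 cells by 0.88 (edgeR adjusted p = 0.000312) and was -0.32 ± 0.15 in 22RV1 cells (adjusted p = 0.135), a difference that was not called (adjusted p = 0.102).

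Of the 2 nuclease subunits and the scaffold, 1 fell in 22RV1 and 2 in DU145 cells. EME1 (chr17:50373220-50381483) had the smallest adjusted p of the 42, with 1072 and 1058 with PBS and 406 and 447 with H2O2 in 22RV1 cells, and 776 and 728 with PBS and 352 and 334 with H2O2 in DU145 cells. Every library with H2O2 lay below every library with PBS, and the log2 fold change was -1.23 ± 0.12 (edgeR adjusted p = 0.00104). MUS81, the catalytic partner of EME1 in cutting joined DNA (chr11:65857126-65867653), had 951 and 984 with PBS and 943 and 899.8 with H2O2 in 22RV1 cells, and 1570.4 and 1984 with PBS and 1699.5 and 1659 with H2O2 in DU145 cells. Its values with H2O2 were just below those with PBS in 22RV1 cells and overlapped them in DU145 cells, and MUS81 was called in neither line (log2 fold changes of -0.05 ± 0.11 and -0.10 ± 0.11). The subunits of this nuclease thus had unlike values, which were not tested against each other. SLX4, the scaffold that holds several nucleases, had 918 and 854 with PBS and 933 and 830.1 with H2O2 in 22RV1 cells, and 1172 and 1305 with PBS and 782 and 704 with H2O2 in DU145 cells. It fell in DU145 cells with a log2 fold change of -0.76 ± 0.12 (edgeR adjusted p = 8.51e-05) and was 0.01 ± 0.12 in 22RV1 cells. The difference of 0.77 ± 0.17 had an edgeR adjusted p of 0.00475, which became 0.105 without the DU145 PAGE4 pair.

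**Figure D3:**
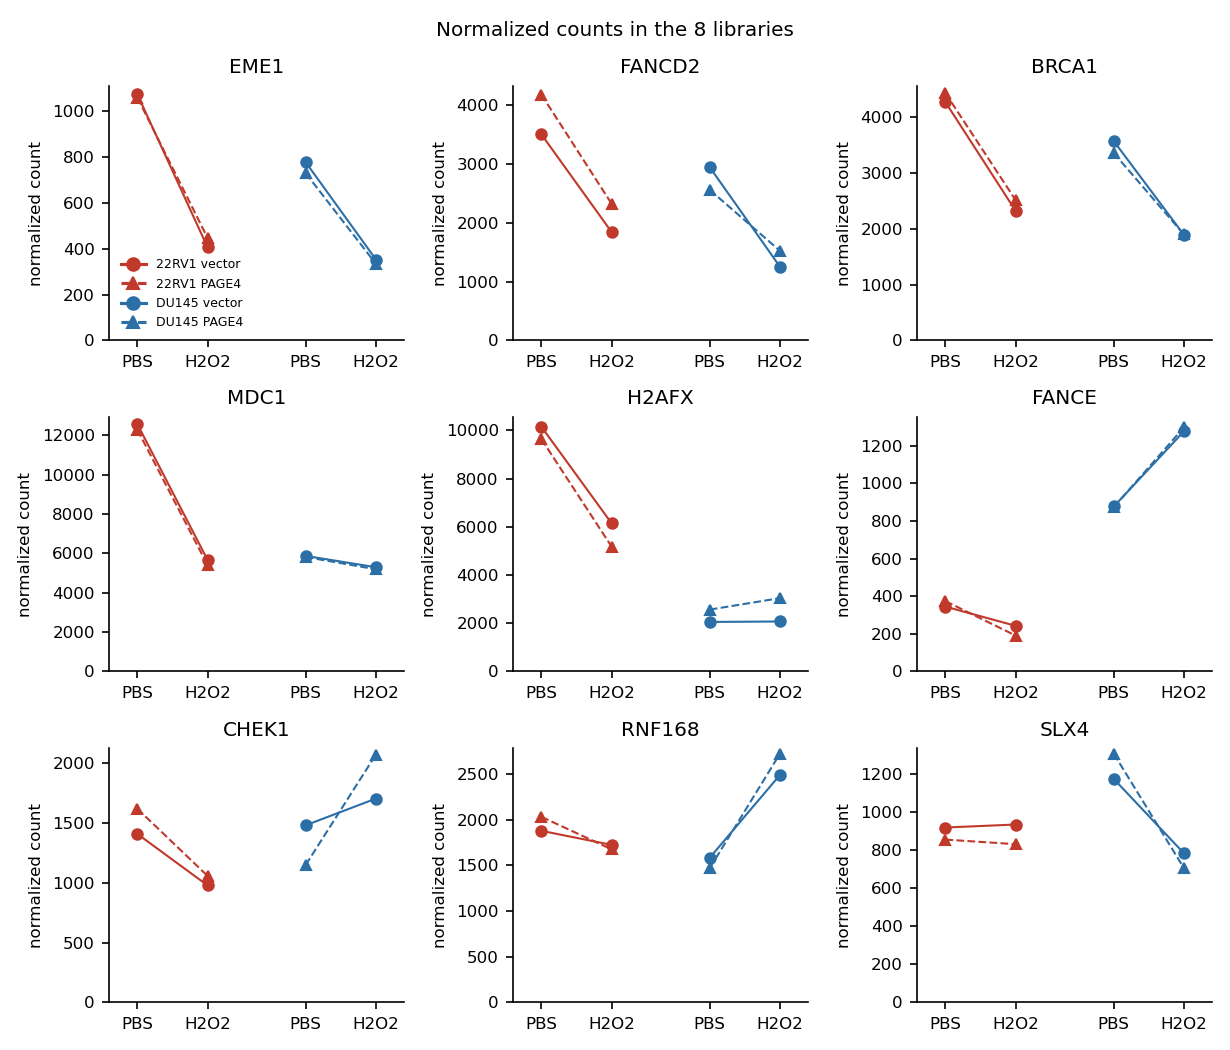
Normalized counts of 9 of the genes (y axes, starting at 0) with PBS and H2O2 in the 8 libraries. Lines join the PBS and H2O2 libraries of a pair, solid with circles for vector and dashed with triangles for PAGE4, in red for 22RV1 and blue for DU145. EME1, FANCD2 and BRCA1 fell in both lines, MDC1 and H2AFX dropped in the 22RV1 libraries, FANCE, CHEK1 and RNF168 were higher with H2O2 in the DU145 libraries, and SLX4 was lower with H2O2 in the DU145 libraries.

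Of the 5 checkpoint genes, 4 fell in 22RV1 cells, and in DU145 cells 2 fell and 1 rose. ATM, the kinase that responds to double-strand breaks (chr11:108223044-108369102), had 1519.7 and 1827 with PBS and 764 and 1139.5 with H2O2 in 22RV1 cells, and 2409.9 and 1952 with PBS and 1076 and 1044 with H2O2 in DU145 cells. All libraries with H2O2 were below all with PBS, and the log2 fold change was -0.94 ± 0.11 (edgeR adjusted p = 0.00223). ATR, the kinase that responds to single-stranded DNA, was called in neither line, with log2 fold changes of -0.02 ± 0.11 and -0.11 ± 0.11. CHEK2, the kinase that ATM activates, fell in both lines, by 0.51 and 1.13 on the log2 scale in 22RV1 and DU145 cells, respectively.

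CHEK1, the kinase that ATR activates (chr11:125625163-125676255), had 1409.8 and 1621 with PBS and 979 and 1059 with H2O2 in 22RV1 cells, and 1483 and 1152 with PBS and 1706 and 2074 with H2O2 in DU145 cells. H2O2 libraries were the lowest of all in 22RV1 and the highest of all in DU145, where the gain was larger in PAGE4 than in vector cells. The log2 fold change was -0.55 ± 0.13 in 22RV1 and 0.50 ± 0.13 in DU145 cells, and the difference of -1.06 ± 0.18 had an edgeR adjusted p of 0.000569. Without the DU145 PAGE4 pair, the DU145 value was 0.18 and was no longer called (edgeR adjusted p = 0.509). TOPBP1, the activator of ATR (chr3:133598175-133662380), had 3095 and 3131 with PBS and 2573 and 2226 with H2O2 in 22RV1 cells, and 3543 and 3155 with PBS and 3062 and 3148 with H2O2 in DU145 cells. It fell in 22RV1 cells by 0.36 on the log2 scale (edgeR adjusted p = 0.00616, and 0.0724 without the 22RV1 PAGE4 pair), and the DU145 PAGE4 libraries hardly differed.

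The 5 genes of the chromatin signal at breaks had a median difference of -0.90 between the responses of the lines. Over all genes tested this median was 0.03. The group was split: the difference was called for MDC1, H2AFX and RNF168, but not for RNF8 (-0.12 ± 0.16) or TP53BP1 (0.19 ± 0.13). In this group, 2 genes fell in 22RV1 and 2 rose in DU145 cells. MDC1, which binds phosphorylated H2AX (chr6:30699807-30717447), had 12559 and 12275 with PBS and 5664 and 5404 with H2O2 in 22RV1 cells, and 5869 and 5813 with PBS and 5294 and 5189.5 with H2O2 in DU145 cells. With PBS, the 22RV1 libraries were far above the DU145 libraries, and with H2O2 all 4 were at similar levels. Its log2 fold change was -1.15 ± 0.07 in 22RV1 and -0.18 ± 0.07 in DU145 cells, and the difference of -0.97 ± 0.10 had an edgeR adjusted p of 5.86e-06. H2AFX, the histone variant itself (chr11:119093874-119095465), had 10151 and 9639 with PBS and 6148 and 5179.8 with H2O2 in 22RV1 cells, and 2052 and 2565 with PBS and 2072 and 3040.3 with H2O2 in DU145 cells. It was lower with H2O2 in both 22RV1 pairs and in neither DU145 pair. Its log2 fold change was -0.79 ± 0.08 in 22RV1 and 0.11 ± 0.09 in DU145 cells, and the difference of -0.90 ± 0.12 had an edgeR adjusted p of 5.32e-05.

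RNF168, a ubiquitin ligase that marks histones around a break (chr3:196468783-196503768), had 1878 and 2031 with PBS and 1724 and 1675 with H2O2 in 22RV1 cells, and 1584 and 1470.1 with PBS and 2489 and 2722 with H2O2 in DU145 cells. Both DU145 libraries with H2O2 were above the other 6 libraries. It rose in DU145 cells with a log2 fold change of 0.75 ± 0.10 (edgeR adjusted p = 1.13e-05) and was -0.18 ± 0.10 in 22RV1 cells, a difference of -0.93 ± 0.14 (adjusted p = 0.000159). RNF8, the ligase that acts before RNF168 (chr6:37353979-37394734), had 552 and 536 with PBS and 685 and 625 with H2O2 in 22RV1 cells, and 1197 and 1268 with PBS and 1583 and 1737 with H2O2 in DU145 cells. Higher counts with H2O2 were seen in each of the 4 pairs, with a log2 fold change of 0.34 ± 0.10 (edgeR adjusted p = 0.0489), and the call was lost whichever of the 4 pairs was left out. TP53BP1, which shields ends from resection, was called in neither line.

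Other gene lists moved with the treatment, and their part in these results was not tested. Among all genes averaging 100 or more, 22.8% fell and 18.6% rose in 22RV1 cells, and 30.0% and 25.7% did so in DU145 cells. The 20 genes of G2 and M phase, such as CCNB1 and PLK1, fell in 20 of 20 cases in each line, with median log2 fold changes of -1.41 in 22RV1 and -1.09 in DU145 cells. Their summed normalized count was 113141 to 113872 with PBS and 35377 to 41237 with H2O2 in 22RV1 cells, and 140734 to 141583 and 58894 to 67229 in DU145 cells. Of 22 S phase genes, such as the MCM helicase subunits, 19 fell in 22RV1 cells (median -0.65), and 9 fell and 3 rose in DU145 cells (median -0.14). Their sum was 112720 to 125886 with PBS and 76928 to 79657 with H2O2 in 22RV1 cells, and 109773 to 113960 and 103656 to 110923 in DU145 cells, so that the ranges overlapped only in DU145 cells.

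A list of further genes of the same pathways held 58, of which 57 were tested. In 22RV1 cells, 20 of the 57 fell and 4 rose, with a median of -0.16, and in DU145 cells 14 fell and 13 rose, with a median of -0.01. The 10 genes of end joining, the route that rejoins breaks without a template, had 3 that fell and 1 that rose in 22RV1 cells, and 2 that fell and 3 that rose in DU145 cells. Of all genes tested, 14.9% fell and 12.8% rose in 22RV1 cells, and 19.8% and 16.9% did so in DU145 cells. Of those averaging 100 or more, 22.8% fell and 18.6% rose in 22RV1 cells, and 30.0% and 25.7% in DU145 cells. The DU145 counts of both lists were near these shares. These lists were not tested against the 42 genes.

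The next question was whether PAGE4 altered these genes. The H2O2 response in PAGE4 cells did not differ detectably from that in vector cells for any of them: edgeR called 0 of 42 and 0 of all 22418 genes (0.0%), none of the 42 had an unadjusted p under 0.05, and DESeq2 also called 0 of the 42. This fit took the 2 lines as repeats, so the different H2O2 responses of the lines counted as spread. The SE of MDC1 was 0.42 here and 0.10 for the difference between the lines. Of all 22418 genes, 59 had an edgeR unadjusted p under 0.05. The fit could therefore hardly call such a difference, and the 0 does not show that there was none. The differences lay between -0.25 and 0.41 on the log2 scale, and the smallest unadjusted p were those of WRN (0.226), FANCD2 (0.266) and ATM (0.286). For WRN, H2O2 changed the vector libraries little and the PAGE4 libraries upwards in both lines, but the difference of 0.33 ± 0.25 was within the spread. Across the 4 pairs, PAGE4 against vector called 0 of 42 genes with edgeR, against 0.174% of all genes tested. An unadjusted p under 0.05 was found for 2 of them in edgeR and for 2 in DESeq2, which also called 0. UBE2T had a log2 fold change of -0.21 ± 0.07 (edgeR adjusted p = 0.467), BRIP1 of -0.21 ± 0.09 (0.625) and FANCG of 0.13 ± 0.07 (0.695).

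In single pairs of libraries, a fold change over 1.5 in PAGE4 against vector cells was found for 0 of the 42 genes in 22RV1 with PBS, 1 in 22RV1 with H2O2, 0 in DU145 with PBS and 0 in DU145 with H2O2. Among all genes that averaged 10 or more normalized counts in the line, 17.9%, 21.4%, 16.9% and 16.9% passed. These shares include genes with lower counts than any of the 42, and the shares among genes with counts like theirs were not computed. They are therefore no like measure for the 42, and whether the 42 changed less than other genes was not tested. The median log2 ratios of the 42 genes were 0.03, 0.10, -0.11 and 0.01. The 1 gene was RAD51B, with raw counts of 66 in PAGE4 and 52 in vector cells, normalized counts of 71.9 and 40.6 and a log2 ratio of 0.82 (95% exact Clopper-Pearson interval 0.28 to 1.38, for counting error only). In the other 3 pairs its log2 ratio was -0.02, -0.09 and -0.14, each with an interval that spanned 0.

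H2AFX was the only gene of the 42 whose PAGE4 effect was called as different between the lines (1.84% of all genes tested). Against vector cells, PAGE4 cells had a log2 ratio of H2AFX of -0.08 (-0.11 to -0.04) in 22RV1 with PBS and of -0.25 (-0.30 to -0.20) with H2O2, and in DU145 of 0.32 (0.23 to 0.41) with PBS and 0.55 (0.46 to 0.64) with H2O2. It was thus lower in PAGE4 cells in both 22RV1 pairs and higher in both DU145 pairs. The difference was -0.62 ± 0.12 with an edgeR adjusted p of 0.0103, and it was not called without the DU145 H2O2 pair (adjusted p = 0.111). Each construct in a line is a single transduced population, so an effect of PAGE4 and a difference between populations cannot be told apart.

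**Figure D4:**
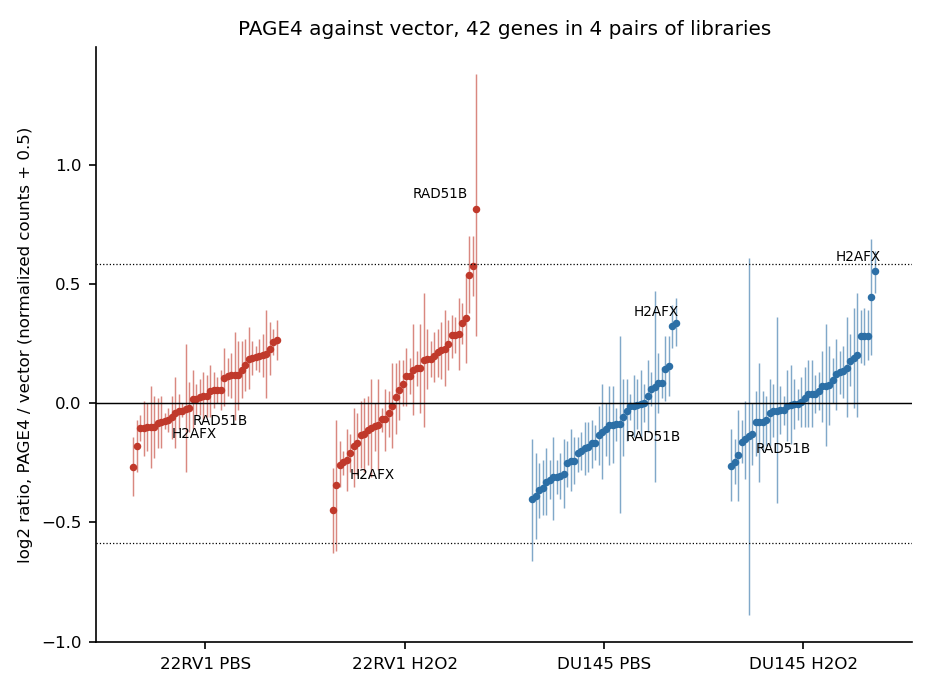
Log2 ratio of the normalized count in PAGE4 cells to that in vector cells (y axis) for the 42 genes in each of the 4 pairs of libraries (x axis), in rising order within a pair. Bars are 95% exact intervals for counting error, dotted lines mark a fold change of 1.5, and RAD51B in 22RV1 with H2O2 is the only point beyond them.

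Finally, the levels without H2O2 were compared between the lines. With PBS, 15 of the 42 genes were higher and 13 lower in 22RV1 than in DU145 cells by edgeR, against 31.7% and 29.4% of all genes tested and 35.9% and 36.4% of those averaging 100 or more. The count was 7 higher and 11 lower without the 22RV1 PAGE4 PBS library, and 7 higher and 14 lower without the DU145 PAGE4 PBS library. FANCF (chr11:22622533-22625823) stood furthest apart, with 948 and 1112 with PBS and 690.1 and 702 with H2O2 in 22RV1 cells, and 118 and 123 with PBS and 140.0 and 137 with H2O2 in DU145 cells. Every 22RV1 library was above every DU145 library, and with PBS the log2 difference was 3.08 ± 0.17, or 8.48-fold (edgeR adjusted p = 2.16e-08). H2AFX was higher in 22RV1 by 2.1 ± 0.17 on the log2 scale, MDC1 by 1.08 ± 0.08, XRCC2 by 1.07 ± 0.11 and UBE2T by 1.04 ± 0.10, with edgeR adjusted p of 4.19e-06 or less. FANCE, RNF8 and MRE11A had the largest differences the other way, at -1.29 ± 0.15, -1.19 ± 0.13 and -1.05 ± 0.12.

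**Figure D5:**
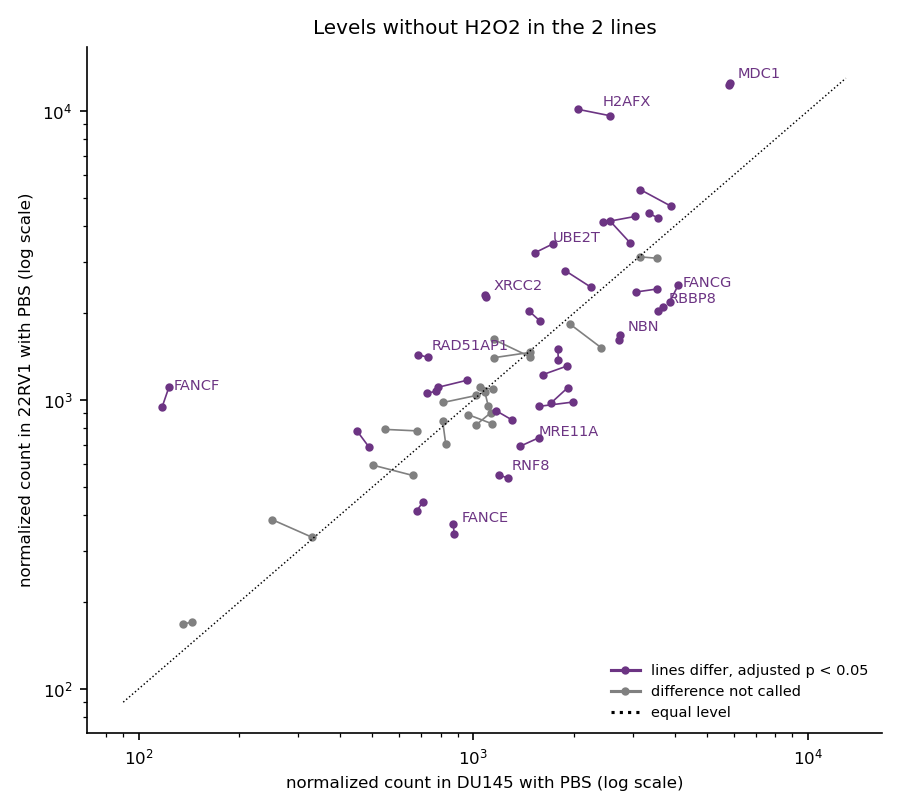
Normalized counts with PBS in DU145 cells (x axis) and 22RV1 cells (y axis), both on log scales, for the 42 genes. Each gene has 2 joined points, its vector and its PAGE4 libraries, in purple where edgeR called a difference between the lines (28 genes). FANCF and H2AFX lie furthest above the dotted line of equal levels, and FANCE and RNF8 lie well below it.

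Levels of different genes were compared per kb of annotated exon, as the mean normalized count over the 8 libraries. H2AFX had 3207 per kb, UBE2T 985, MDC1 952 and RBBP8 604, and at the other end RAD51B had 13.6 and FANCL 12.7. Exon lengths were the union over all annotated transcripts, which lowers this value for genes with many long isoforms. Of the 42 genes, 31 shared at least 1 exon base with another annotated gene and 27 had a gene on the opposite strand over an exon, and whether counting used strand is not given in the sources used here.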

How the data were processed

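Per the labels and the study's methods, the authors mapped the reads of 8 RNA-seq libraries to GRCh38 with HISAT2 2.1.0, used featureCounts 1.6.0 for counting and deposited the raw counts per gene, not normalized, as 2 tables, 1 per cell line. The library labels name Trizol for extraction and the methods a column kit, and the annotation used for counting is not given in the sources used here.

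The 42 genes, the role groups and the comparison lists were chosen with earlier results of these data known. The quasi-likelihood test of edgeR 4.0.16 (R 4.3.3) was run on all 8 libraries with TMM normalization, filterByExpr and Benjamini-Hochberg adjustment over 22418 genes, with a threshold of 0.05. H2O2 effects had the 4 line-by-construct pairs as blocks, PAGE4 effects the 4 line-by-treatment pairs, and the line effect at PBS had treatment, its interaction with line, and construct as terms. Normalized counts used DESeq2 1.42.0 size factors over the 8 libraries. Following the methods of the study, single pairs were compared by a fold change over 1.5, among genes averaging 10 or more normalized counts in the line, with a pseudocount of 0.5 for log2 ratios. The fits were run on simulated counts with known changes that were larger than most of those reported here. That run does not show how well smaller changes are called. Alternatives were DESeq2 size factors, no filter, the Wald test of DESeq2, the cell line as block, no construct term, other normalizations and limits of the folds, and leaving out each pair or library.

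Values in every library were given for the 10 genes with the smallest adjusted p of the common H2O2 effect, the 5 smallest of its difference between lines and of the line effect, genes called for PAGE4 effects (or, where none was called, those with the 3 smallest p), and the gene with the highest mean count of each role group. RNF8 and SLX4 were added after their values were seen. Coordinates are from GENCODE release 44 on GRCh38. Older symbols were matched through RefSeq synonyms. Of the listed markers of 22RV1 cells, 1 is not reported here. Counts of 25482984 to 43310401 per library set the counting precision, and intervals cover counting error only.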

Additional observations from a re-analysis of the deposited data

Results flagged for a closer look

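The response to H2O2 differed between the lines by a test of the difference itself (edgeR's quasi-likelihood test with Benjamini-Hochberg adjustment, adjusted p under 0.05) for 16 of the 42 genes. As the log2 fold change in 22RV1 minus that in DU145 cells, the difference was -1.24 for FANCE, -1.06 for CHEK1, -0.97 for MDC1, -0.93 for RNF168 and for RAD54B, and -0.90 for H2AFX. It was -0.78 for RAD51D, -0.72 for FANCF, -0.67 for RAD51AP1, -0.59 for BRCA2, -0.57 for BLM, -0.55 for RBBP8, -0.54 for XRCC3 and -0.53 for FANCC. It had the other sign for CHEK2, at 0.62, and for SLX4, at 0.77.

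The effect of PAGE4 differed between the lines by the same kind of test for H2AFX, at -0.62 on the log2 scale.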

How the results depend on the processing

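None of the called genes changed direction under an alternative. The balance of the comparison of the lines with PBS did change. More genes were higher than lower in 22RV1 cells with all libraries, and fewer were without either PAGE4 PBS library. Leaving out each pair in turn, 10 to 17 genes were called for the common H2O2 effect in place of 19, with the lowest count without the 22RV1 vector pair. The difference of that effect between the lines gave 8 to 20 in place of 16, and the difference of the PAGE4 effect 0 to 3 in place of 1, with 0 without the DU145 H2O2 pair. The comparison of the lines with PBS gave 18 to 31 in place of 28 when each library was left out, with the lowest count without the 22RV1 PAGE4 PBS library. Without the filter on low counts, the difference of the PAGE4 effect was called for 2 genes, and with a fold change over 2 the count in 22RV1 with H2O2 was 0 in place of 1. Counts in the 2 lines alone stayed within 1.5 times under all alternatives tried, at 29 or 30 in 22RV1 and 16 to 26 in DU145 cells, where the number that rose was 2 without either DU145 pair, in place of 6. The pairs of libraries that served as blocks come from the shared line and construct or treatment, since the labels give no replicate numbers. Since each condition has 1 library, changes smaller than the spread between pairs could not be called, whatever the depth.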
